A study of Mus musculus with 8 samples.

Results

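The mitochondrial ribosomal protein genes were taken as all genes whose symbol starts with Mrpl (large subunit) or Mrps (small subunit) followed by a digit. There were 78 of them among the 17191 genes of the table, and 78 of the 78 passed the filter on low counts that left 12998 genes for testing. By their current names, 51 encode proteins of the large subunit and 26 proteins of the small subunit. The product of Mrps36 is now counted as a part of the 2-oxoglutarate dehydrogenase complex rather than of the ribosome. RNA sequencing had been done on whole hearts of STAT3 S727A mice (4 libraries) and wild-type (WT) mice (4 libraries), and both groups had undergone TAC, a surgical narrowing of the aorta that loads the left ventricle with pressure, 4 weeks earlier. In S727A, the serine at this position of the transcription factor STAT3, which can be phosphorylated, is replaced by alanine. There was no group without the operation, so each comparison is between genotypes in loaded hearts. The labels tell no batches apart and name no sex, age, strain or animal, nor whether the mutation is in every cell.

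Mitochondria hold a ribosome of their own, which makes the few respiratory chain proteins that the mitochondrial genome encodes. All of its proteins are encoded in the nucleus, made in the cytosol and imported, and some descend from bacterial ribosomal proteins while others were added in the mitochondrial lineage. The heart lives mainly on oxidative phosphorylation, human variants in MRPL3, MRPL44 and MRPS22 cause cardiomyopathy, and STAT3 phosphorylated at this serine has been linked to a mitochondrial pool of the protein.

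Promoters of nuclear genes for mitochondrial proteins often carry sites for NRF1, for ETS factors such as GABPA (NRF2) and for YY1. Of the 78 genes, 69 had a window in the RefSeq promoter table (GRCm38.p6), which runs from 250 bases before to 50 bases after the start of the gene. Both strands were searched. Each gene was counted once, also the 3 with more than 1 window. The NRF1 motif was GCGC and TGCGC with 1 base of any kind between them. It occurred in 13 of the 69 genes (18.8%), against 11.1% of 10273 other tested genes. CCGGAAG (ETS) occurred in 26 (37.7%, against 19.3%), and AAGATGGCG (YY1) in 8 (11.6%, against 3.39%). At least 1 of the 3 motifs was present in 41 genes (59.4%), against 30.2% of the other genes. The 3 motifs differ in sequence and matches to each were counted separately. These are matches of letters and not measured binding. The windows printed here show the motif kinds found: Mrps27 and Mrps18a with ETS and YY1 matches, Mrpl12 with an NRF1 match, and Mrpl20, the gene of smallest p, with none of the 3. Capitals mark a match on either strand. Each is on the + strand, 5′ to 3′: Mrps27 at chr13:99344536-99344835 (ETS at -48, YY1 at 15), Mrps18a at chr17:46110754-46111053 (ETS at -26, YY1 at 12), Mrpl12 at chr11:120484387-120484686 (NRF1 at -81) and Mrpl20 at chr4:155802628-155802927. Positions give the leftmost base of the match, with the first base of the gene as 1.
Mrps27: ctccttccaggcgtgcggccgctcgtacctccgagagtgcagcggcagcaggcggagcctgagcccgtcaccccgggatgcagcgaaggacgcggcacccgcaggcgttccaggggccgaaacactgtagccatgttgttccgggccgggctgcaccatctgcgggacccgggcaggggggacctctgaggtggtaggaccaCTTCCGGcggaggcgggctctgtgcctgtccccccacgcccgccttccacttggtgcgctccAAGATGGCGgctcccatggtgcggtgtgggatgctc
Mrps18a: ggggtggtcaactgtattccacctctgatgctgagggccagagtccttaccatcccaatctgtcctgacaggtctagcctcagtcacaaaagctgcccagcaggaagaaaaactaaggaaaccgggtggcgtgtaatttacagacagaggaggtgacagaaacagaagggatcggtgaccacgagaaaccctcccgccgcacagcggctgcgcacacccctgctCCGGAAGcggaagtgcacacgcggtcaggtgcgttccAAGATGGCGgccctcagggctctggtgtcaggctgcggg
Mrpl12: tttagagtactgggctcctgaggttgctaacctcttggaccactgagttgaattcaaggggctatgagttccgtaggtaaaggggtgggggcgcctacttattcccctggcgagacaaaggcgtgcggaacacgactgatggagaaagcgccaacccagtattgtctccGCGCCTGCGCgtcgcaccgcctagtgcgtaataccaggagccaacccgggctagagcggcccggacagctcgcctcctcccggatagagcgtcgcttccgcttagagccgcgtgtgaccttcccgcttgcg
Mrpl20: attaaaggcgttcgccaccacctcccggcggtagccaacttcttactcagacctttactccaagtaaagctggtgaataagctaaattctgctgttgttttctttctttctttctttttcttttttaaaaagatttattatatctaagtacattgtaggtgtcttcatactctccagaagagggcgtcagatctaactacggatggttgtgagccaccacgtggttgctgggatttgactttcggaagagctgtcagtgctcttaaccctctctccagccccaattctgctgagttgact

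Total estimated counts ran from 10577619 to 13305124 per library, and the mitochondrial ribosomal protein genes had 168 to 3561 counts in a library. Summed cardiac myocyte markers stood at 102191 to 111003 CPM (read counts scaled to library size) in S727A hearts, against 94577 to 126714 CPM in WT hearts. Some libraries stood apart. S727A 4 and WT 4 had 9 and 6 counts over the Y-linked genes, where the other 6 libraries had 1940 to 2225. Airway epithelial transcripts had 1477 counts in WT 1 and 771 in WT 4, against 1 to 24 in the others. The Stat3 transcript averaged 164 ± 6.74 CPM in S727A hearts and 201 ± 23.2 CPM in WT hearts (SD, n = 4 each), a log2 fold change of -0.29 ± 0.09 (SE) with an adjusted p of 0.155. An amino acid change need not alter transcript level, so this does not check the genotype.

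No difference between S727A and WT hearts in a mitochondrial ribosomal protein gene passed correction over all genes tested by edgeR. At an adjusted p under 0.05 (edgeR's quasi-likelihood test, Benjamini-Hochberg over 12998 genes), 0 of 78 were called, where 0.146% of all genes were. The smallest adjusted p was 0.116, for Mrpl20. Limma voom and limma on FPKM also called 0 of 78 (0.0462% of all genes in each), and DESeq2 called 2, given with their values further on. Log2 fold changes of S727A over WT ran from -0.31 for Mrpl39, which is 0.81-fold, to 0.39 for Mrpl20, which is 1.31-fold, and 45 of the 78 lay within 0.1 of 0. The median was 0.03, with 51 genes above 0 and 27 below, against a median of 0.00 over all genes tested. In whole hearts, fewer cells of a type and less RNA per cell cannot be told apart.

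The precision was enough to bound most genes. The 95% interval of the log2 fold change stayed within 0.5 on either side of 0 (1.41-fold) for 71 of the 78 genes. It reached past that bound for 7 genes, to -0.62 at the lowest and 0.60 at the highest, namely Mrpl20, Mrps34, Mrps11, Mrps18a, Mrpl16, Mrps12 and Mrpl39. The interval held 0 for 65 genes. The SD of the 78 log2 fold changes was 0.14, beside a median standard error of 0.10 for a single gene.

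**Figure D1:**
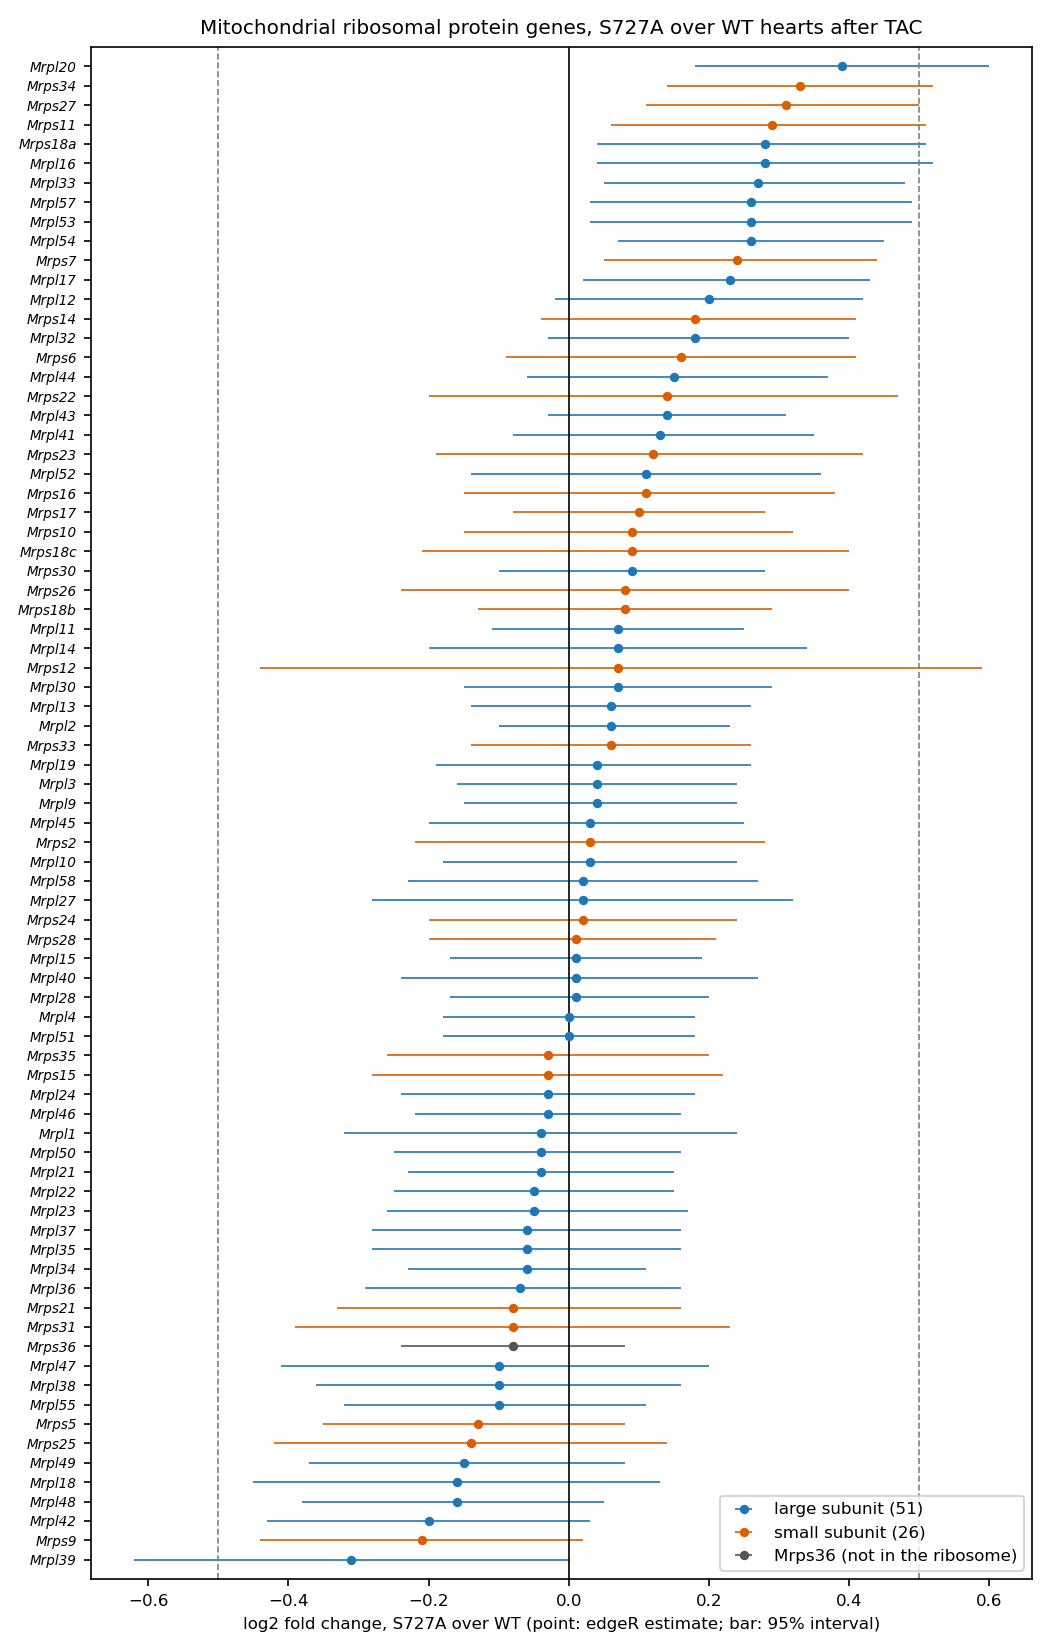
Log2 fold changes of S727A over WT (x axis) of the 78 mitochondrial ribosomal protein genes, as points with their 95% intervals, ordered by size and coloured by subunit, with dashed lines at -0.5 and 0.5. Most intervals cross 0, and the estimates run from -0.31 (Mrpl39) to 0.39 (Mrpl20).

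Below the level of correction the genes leaned upward. At an unadjusted p under 0.05, 12 were higher in S727A (15.4%, against 8.97% of all genes) and 1 was lower (1.28%, against 8.79%), so that the total of 13 (16.7%) was close to the 17.8% of all genes. For 7 of the 78 genes all 4 S727A libraries were above all 4 WT libraries in CPM (8.97%, against 4.07% of all genes), and for 1, Mrps36, all were below (1.28%, against 4.36%). The total of 13 was 6 without S727A 1 (7.69%, against 13.5% of all genes) and 7 without WT 2 (8.97%, against 12.6%). It was 6 without WT 1 and WT 4 (7.69%, against 9.85%). In these settings all were higher in S727A and 0 lower, where 6.65%, 5.94% and 4.32% of all genes were higher, in that order. Without WT 3, 12 were higher (15.4%, against 10.7% of all genes) and 3 lower (3.85%, against 9.48%). Log2 fold changes were then above 0 for 43 genes and below for 35. Without WT 4, 11 were higher (14.1%, against 9.13%) and 2 lower (2.56%, against 8.99%).

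A fit with per-library offsets for the length and GC content of transcripts showed no such lean. There 34 genes were above 0 and 44 below, the median was -0.01, and 6 were higher (7.69%, against 8.92% of all genes) and 5 lower (6.41%, against 8.91%) at an unadjusted p under 0.05. The offsets were fitted to each library's own values without regard to genotype. They can therefore also remove a difference between genotypes that transcripts of like length share. Length and GC content were those of each gene's longest coding transcript, which need not be the one counted. For Mrps17 it has 5061 bases, while the S727A means of 41.3 CPM and 36.8 FPKM imply a much shorter length. The offsets and correlations share this limit. By this measure mitochondrial ribosomal protein transcripts are short, with a median of 1327.5 bases against 3228 over all genes tested. Their GC content was near the 50.3% of all genes. Across the 78 genes, which are not independent, Spearman's rho of the log2 fold change was -0.13 with length, 0.14 with GC content and -0.01 with mean FPKM. What gives rise to the lean was not tested.

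Among large subunit genes, the median log2 fold change was 0.02, with 32 above 0 and 19 below, and 8 were higher and 1 lower at an unadjusted p under 0.05, in all 17.6% against 17.8% of all genes. Among small subunit genes it was 0.08, with 19 above 0 and 7 below, and 4 were higher and 0 lower at that p, in all 15.4%. By the class in their current names, the median was 0.03 for the 46 proteins with bacterial counterparts and 0.06 for the 31 named as mitochondrial. The 31 include Mrps18a and Mrps18b, whose products are relatives of bacterial S18. With the offsets for length and GC content, the subunit medians were -0.02 (large) and 0.00 (small).

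Mrpl20 encodes bL20m, the counterpart of a bacterial protein needed early in assembly of the large subunit. Its gene lies at chr4:155802878-155809975 on the + strand. It had 45.4, 40.4, 42.1 and 35.4 CPM in the 4 S727A libraries, against 31.3, 33.2, 31.3 and 28.8 CPM in the 4 WT libraries. The groups did not overlap, with S727A 4 the lowest of its group. The log2 fold change was 0.39 ± 0.10 (SE), with an adjusted p of 0.116 by edgeR.

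Mrps34 encodes mS34, a small subunit protein found only in mitochondrial ribosomes. It had 66.6, 65.9, 59.0 and 58.8 CPM in S727A hearts, against 51.5, 45.4, 54.1 and 48.2 CPM in WT hearts. Every S727A library was above every WT library. The log2 fold change was 0.33 ± 0.09, with an adjusted p of 0.127 by edgeR. Its exons overlap those of Nme3 on the same strand and Mapk8ip3 on the other, and how reads shared by both were divided is unknown here, which leaves this value uncertain.

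Mrps27 encodes mS27, a small subunit protein of the pentatricopeptide repeat family. It had 69.0, 59.0, 66.1 and 56.2 CPM in S727A hearts, against 50.5, 48.3, 51.2 and 52.3 CPM in WT hearts. The WT libraries were close together and lay below all S727A libraries. The log2 fold change was 0.31 ± 0.09, with an adjusted p of 0.136 by edgeR. Its start lies 81 bases from that of Ptcd2, a gene on the opposite strand whose product acts on mitochondrial RNA. Ptcd2 had 75.5, 63.0, 69.9 and 63.5 CPM in S727A hearts, against 55.3, 50.3, 53.4 and 52.0 CPM in WT hearts. Its groups did not overlap either, and its log2 fold change was 0.37 ± 0.09 with an adjusted p of 0.106 by edgeR.

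Calls for these genes depended on the tool and on S727A 4. DESeq2 called Mrpl20 (adjusted p 0.0253) and Mrps34 (adjusted p 0.0315), both higher, which is 2.56% of the genes where it called 4.11% of all, 2.2% higher. Without S727A 4, edgeR called Mrpl20 (adjusted p 0.0256) and Mrps27 (adjusted p 0.0465), both higher and again 2.56%, against 4.71% of all genes, 2.27% higher. In the authors' deposited table, Mrpl20 (q 0.0325) and Mrps34 (q 0.0394) were under 0.05, both higher, which is 2.56% against 2.61% of all genes, 1.38% higher. With 2 genes called in each case, 1 gene being 1.28% of the 78, these shares are not told apart from those of all genes.

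The other 7 of the 10 genes with the smallest p were also higher in S727A without passing correction, with adjusted p from 0.166 to 0.225 by edgeR. Mrpl54, for a large subunit protein found only in mitochondrial ribosomes, had 66.7, 62.2, 59.5 and 53.4 CPM in S727A hearts, against 50.7, 51.4, 50.1 and 49.8 CPM in WT hearts. Mrps11, for the counterpart of bacterial S11 at the small subunit platform, had 24.7, 19.8, 20.8 and 19.7 CPM in S727A hearts, against 17.1, 17.5, 17.9 and 17.1 CPM in WT hearts. Neither had overlapping groups, and the WT libraries of both were within a narrow range. Mrps7, for the counterpart of bacterial S7 in the head of the small subunit, had 86.1, 75.7, 79.7 and 68.8 CPM in S727A hearts, against 68.8, 61.9, 67.8 and 63.6 CPM in WT hearts. Mrpl33, for the counterpart of the small bacterial protein L33, had 44.9, 40.0, 49.2 and 37.4 CPM in S727A hearts, against 36.2, 37.1, 35.9 and 33.6 CPM in WT hearts. Both were free of overlap by a small margin, set by S727A 4. The log2 fold changes were 0.26 ± 0.09 (Mrpl54), 0.29 ± 0.10 (Mrps11), 0.24 ± 0.09 (Mrps7) and 0.27 ± 0.10 (Mrpl33). In Mrps18a (0.28 ± 0.11), Mrpl16 (0.28 ± 0.11) and Mrpl53 (0.26 ± 0.11) the groups overlapped. Mrpl57 (0.26 ± 0.11) and Mrpl17 (0.23 ± 0.09) complete the 12 that were higher at an unadjusted p under 0.05.

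**Figure D2:**
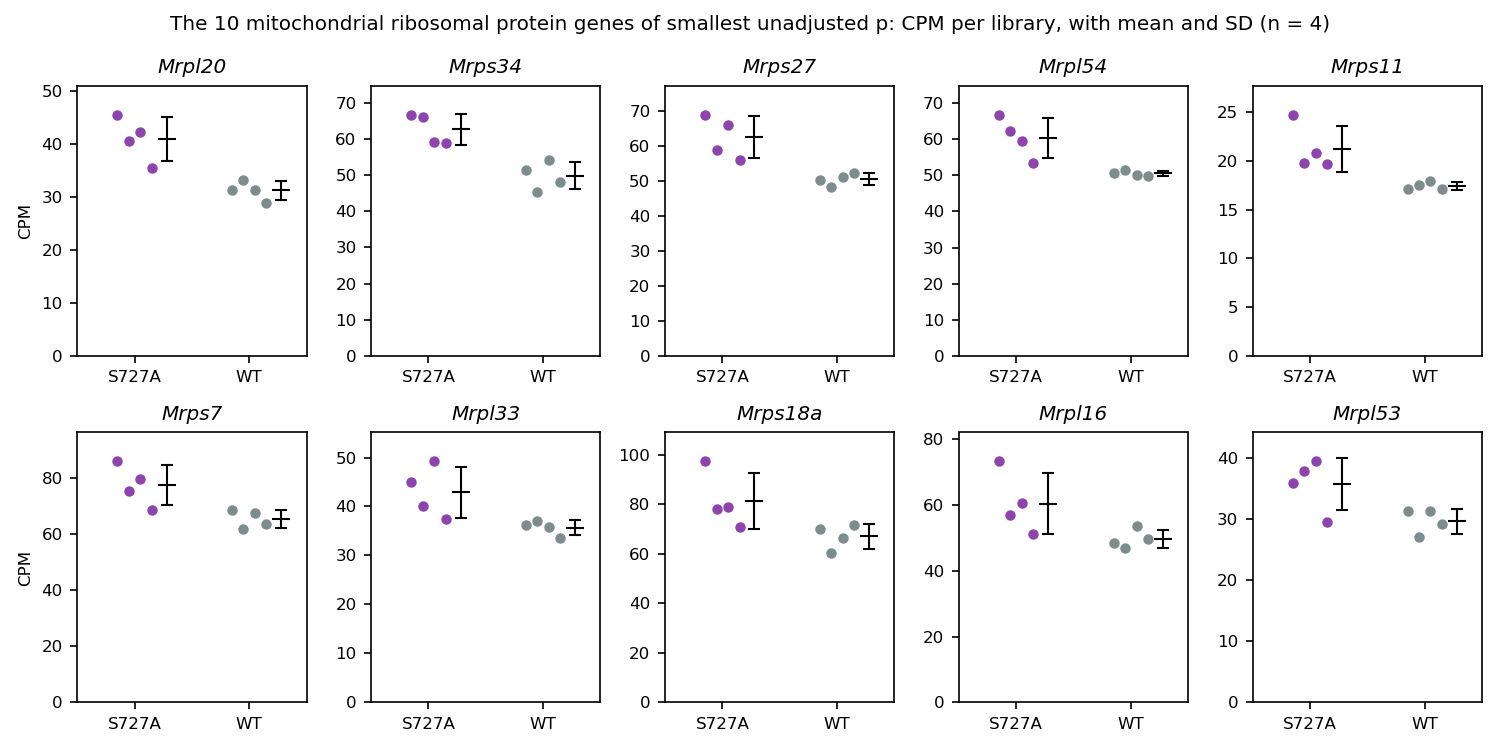
CPM (y axis, from 0) of the 10 mitochondrial ribosomal protein genes of smallest unadjusted p, 1 panel a gene and 1 point a library, with S727A left of WT and a bar at each group's mean ± SD. Mrpl20 had means of 40.8 and 31.2 CPM in S727A and WT hearts, and its groups did not overlap.

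The only gene lower at an unadjusted p under 0.05 was Mrpl39, for a large subunit protein found only in mitochondrial ribosomes. It averaged 38.4 ± 2.90 FPKM in S727A hearts and 47.9 ± 9.68 FPKM in WT hearts (SD, n = 4 each), and its log2 fold change was -0.31 ± 0.14 with an adjusted p of 0.278 by edgeR. The WT libraries varied far more than the S727A libraries. It was named after its values were seen.

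Mrps18a, Mrps18b and Mrps18c encode 3 relatives of bacterial S18, of which Mrps18b and Mrps18c are placed in the small subunit and Mrps18a in the large. Mrps18a had 97.4, 78.0, 78.8 and 70.8 CPM in S727A hearts, against 70.0, 60.3, 66.5 and 71.7 CPM in WT hearts. Mrps18b had 43.1, 54.8, 47.1 and 42.7 CPM in S727A hearts, against 46.2, 41.9, 43.8 and 45.5 CPM in WT hearts. Mrps18c had 19.1, 18.3, 24.4 and 15.1 CPM in S727A hearts, against 18.1, 19.4, 18.4 and 16.2 CPM in WT hearts. All 3 overlapped between groups, Mrps18a through S727A 4 and WT 4. Their log2 fold changes were 0.28 ± 0.11 (adjusted p 0.215), 0.08 ± 0.10 (adjusted p 0.701) and 0.09 ± 0.14 (adjusted p 0.772) by edgeR, in that order, and the differences between them were not tested. With the offsets for length and GC content, Mrps18c stood at -0.03.

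The stalk of the large subunit, which binds translation factors, is built from the products of Mrpl10, Mrpl11 and Mrpl12. Mrpl12, whose product also binds the mitochondrial RNA polymerase, had 233, 199, 202 and 176 CPM in S727A hearts, against 191, 179, 179 and 157 CPM in WT hearts. Mrpl10 had 85.5, 82.6, 72.9 and 77.7 CPM in S727A hearts, against 75.1, 67.4, 81.3 and 87.2 CPM in WT hearts. Mrpl11 had 46.4, 48.6, 46.9 and 43.9 CPM in S727A hearts, against 48.1, 44.3, 40.5 and 44.1 CPM in WT hearts. Groups overlapped in each of the 3. The log2 fold changes were 0.20 ± 0.10 for Mrpl12, 0.03 ± 0.10 for Mrpl10, which was -0.01 with the offsets, and 0.07 ± 0.08 for Mrpl11, with adjusted p of 0.321, 0.887 and 0.700 by edgeR.

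The 3 genes tied to cardiomyopathy in humans showed overlapping groups as well. Mrpl3, for the counterpart of bacterial L3, had 86.0, 102, 102 and 83.7 CPM in S727A hearts, against 98.3, 85.4, 90.9 and 88.2 CPM in WT hearts. Mrpl44, for a large subunit protein with a ribonuclease-like fold, had 50.6, 55.3, 53.9 and 52.3 CPM in S727A hearts, against 50.7, 40.5, 45.7 and 53.7 CPM in WT hearts. Mrps22, for a small subunit protein found only in mitochondrial ribosomes, had 23.0, 17.3, 23.2 and 19.0 CPM in S727A hearts, against 22.8, 21.2, 15.3 and 15.9 CPM in WT hearts. The libraries of the groups were interleaved in all 3. Log2 fold changes were 0.04 ± 0.09 (Mrpl3, adjusted p 0.855), 0.15 ± 0.10 (Mrpl44, adjusted p 0.428) and 0.14 ± 0.15 (Mrps22, adjusted p 0.678) by edgeR.

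Mrps12, Mrpl58, Mrps30 and Mrps36 were followed for roles of their own. Mrps12, for the counterpart of bacterial S12 at the decoding centre, had 39.6, 28.2, 35.0 and 30.4 CPM in S727A hearts, against 30.7, 17.7, 36.0 and 41.7 CPM in WT hearts. WT 2 was far below the other WT libraries, and the log2 fold change of 0.07 ± 0.23 had the widest error of the 78 genes, with an interval from -0.44 to 0.59. It was -0.01 with the offsets. Mrpl58 (ICT1), a peptidyl-tRNA hydrolase built into the large subunit, had a log2 fold change of 0.02 ± 0.12, which was -0.02 both without S727A 4 and WT 4 and without WT 1 and WT 4. Mrps30, whose product is now placed in the large subunit (mL65), had one of 0.09 ± 0.09. Mrps36 had 73.1, 77.7, 74.2 and 77.8 CPM in S727A hearts, against 83.8, 78.6, 80.0 and 78.5 CPM in WT hearts. All S727A libraries of Mrps36 were below all WT libraries, by a small margin, with a log2 fold change of -0.08 ± 0.07 and an adjusted p of 0.578 by edgeR.

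Per length, the genes spanned a wide range of transcript levels. The median over the 78 was 43.3 FPKM, against 7.75 FPKM over all genes tested, and 65 lay between 10 and 100 FPKM, 4 under 10 and 9 over 100. Large subunit genes had a median of 48.8 FPKM and small subunit genes one of 36.4 FPKM. The proteins are thought to be present in near-equal copies in a ribosome, while the FPKM values of their genes differed widely.

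At the top, Mrpl42 averaged 387 ± 26.5 FPKM in S727A hearts and 454 ± 63.8 FPKM in WT hearts (SD, n = 4 each). Mrpl12 averaged 225 ± 22.9 FPKM in S727A hearts and 201 ± 15.7 FPKM in WT hearts. Mrpl30 averaged 208 ± 13.4 FPKM in S727A hearts and 204 ± 25.4 FPKM in WT hearts. These 3 encode large subunit proteins, and Mrpl42 stood well apart from the next. At the bottom, Mrps25 averaged 3.59 ± 0.319 FPKM in S727A hearts and 4.01 ± 0.632 FPKM in WT hearts. Mrpl17 averaged 6.59 ± 0.483 FPKM in S727A hearts and 5.72 ± 0.544 FPKM in WT hearts. Mrpl19 averaged 6.35 ± 0.507 FPKM in S727A hearts and 6.28 ± 0.695 FPKM in WT hearts. Mrpl17 and Mrpl19 were within their spread of each other. The longest coding transcripts of Mrps25, Mrpl17 and Mrpl19 have 6073, 7300 and 5000 bases, and FPKM divides by length. In CPM they were not the lowest. Mrpl17 averaged 44.3 CPM in S727A hearts and 37.9 CPM in WT hearts, where Mrpl47 averaged 15.7 CPM in S727A hearts and 16.9 CPM in WT hearts. Between groups, log2 fold changes were -0.20 ± 0.10 for Mrpl42 (adjusted p 0.337), 0.07 ± 0.10 for Mrpl30 (adjusted p 0.770), -0.14 ± 0.13 for Mrps25 (adjusted p 0.614), 0.23 ± 0.09 for Mrpl17 (adjusted p 0.238) and 0.04 ± 0.10 for Mrpl19 (adjusted p 0.892) by edgeR.

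**Figure D3:**
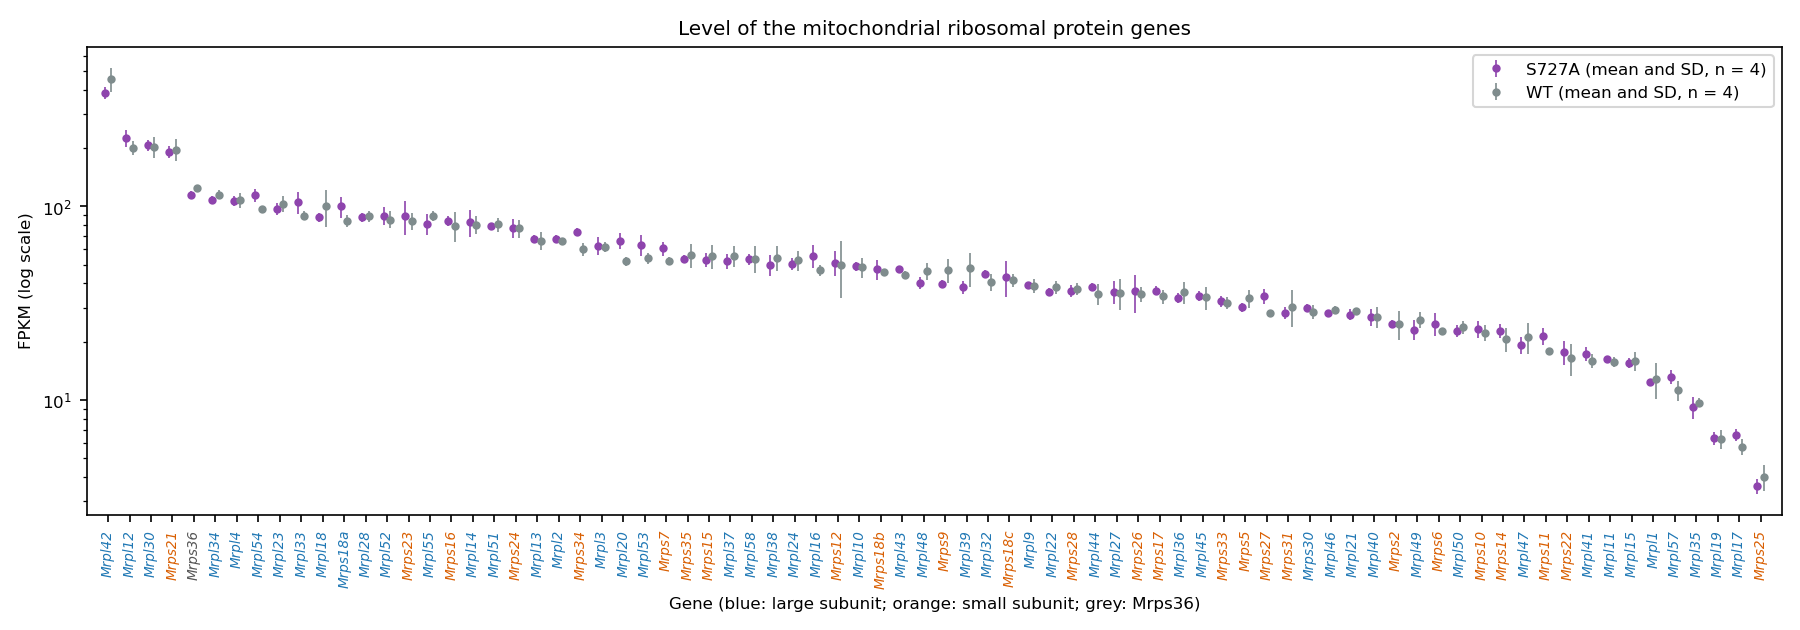
FPKM on a log scale (y axis) of each mitochondrial ribosomal protein gene (x axis, highest to lowest, names coloured by subunit), as mean ± SD of 4 S727A (purple) and 4 WT (grey) libraries. Levels run from Mrpl42 (387 FPKM in S727A hearts, 454 FPKM in WT hearts) to Mrps25 (3.59 FPKM in S727A hearts, 4.01 FPKM in WT hearts), and the means of the groups lie close together beside that range.

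Summed over the 78 genes, the level was 4492, 4406, 4358 and 4156 CPM in the S727A libraries, against 4573, 4198, 4099 and 4182 CPM in the WT libraries. WT 1 was the highest of all 8 libraries, and the groups overlapped. The mean was 4353 ± 143 CPM in S727A hearts and 4263 ± 211 CPM in WT hearts, 2.11% higher in S727A and less than the SD of either group. In summed FPKM the difference was 0.404%. Small subunit genes summed to 1157 ± 66.4 CPM in S727A hearts and 1107 ± 41.3 CPM in WT hearts, and large subunit genes to 3120 ± 80.2 CPM in S727A hearts and 3076 ± 170 CPM in WT hearts. The ratio of small to large was 0.371 ± 0.0131 in S727A hearts and 0.360 ± 0.00902 in WT hearts, with overlapping libraries.

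Within the groups, some libraries stood mostly high or mostly low. S727A 4 was the lowest S727A library for 43 of the 78 genes and the highest of all 8 libraries for 0. WT 1 was the highest WT library for 35 genes and the highest of all 8 for 23. S727A 1 was the highest of all 8 for 21. Per gene, the median coefficient of variation was 7.63% among S727A libraries and 9.17% among WT libraries. Without S727A 4, or without WT 1, the median log2 fold change of the 78 genes was 0.07 in place of 0.03. WT 1 also held the airway transcripts given above, and S727A 4 had almost no Y-linked counts. The part of either in this was not tested.

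**Figure D4:**
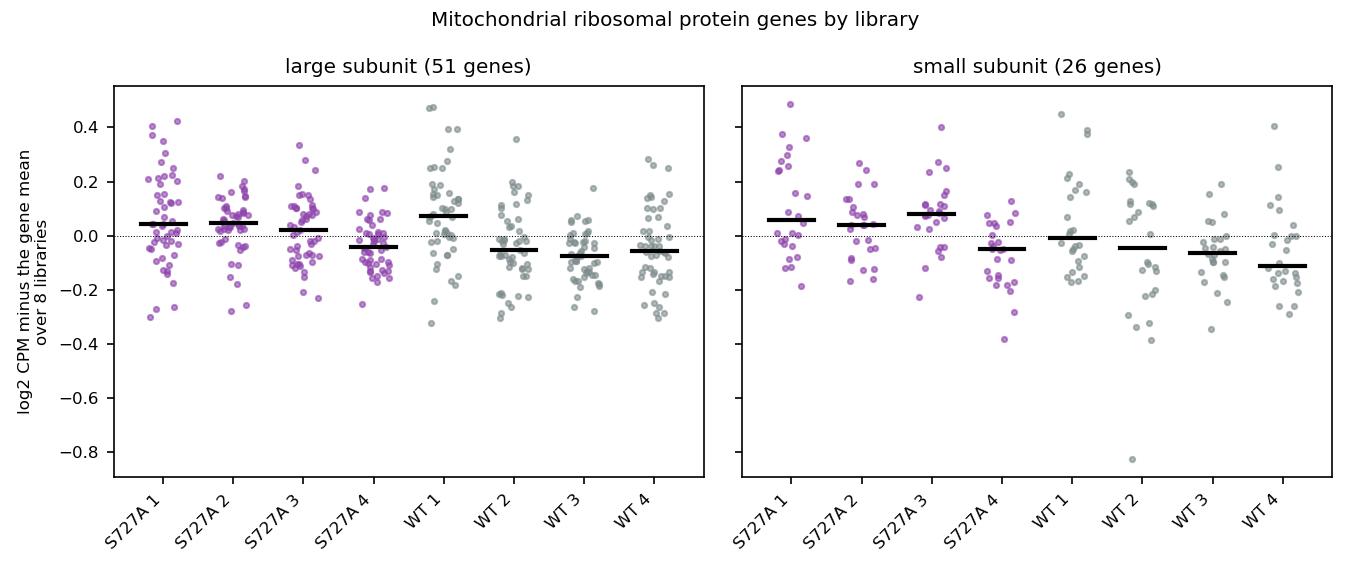
Log2 CPM of each mitochondrial ribosomal protein gene minus its mean over the 8 libraries (y axis), by library (x axis), with a bar at the library's median, for large (left) and small (right) subunit genes. S727A 4 sits below the other S727A libraries, and the low point in WT 2 is Mrps12 (17.7 CPM).

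The genes lie on 17 chromosomes. Chromosome 11, which carries Stat3, holds 11 of them, which had a median of 0.02 on the log2 scale and ran from -0.10 to 0.24 (Mrps7), against a median of 0.04 for the 67 on other chromosomes. The nearest to Stat3 were Mrpl45 at 3.56 Mb and Mrpl10 at 3.84 Mb. For 25 genes the start of another gene lies within 500 bases on the opposite strand, and their median was 0.06, against 0.03 for the other 53. These form 24 pairs, and in the 21 with both genes tested, 12 had log2 fold changes of like sign (8 both above 0, 4 both below) and 9 of opposite sign. Among the ribosomal protein genes of smallest p, Mrps34 (0.33) faces Eme2 (-0.07), Mrpl54 (0.26) faces Apba3 (-0.11), Mrps7 (0.24) faces Gga3 (-0.19) and Mrps11 (0.29) faces Mrpl46 (-0.03), while Mrps27 and Ptcd2 were both above 0. Exons of 33 genes overlap another gene, 8 of them on the same strand, so their counts may include reads of the other gene. The 8 with an overlap on the same strand were Mrpl3, Mrpl33, Mrpl51, Mrpl53, Mrps18c, Mrps24, Mrps34 and Mrps6. They held none below 0 (Mrpl51 at 0.00), with a median of 0.13. At an unadjusted p under 0.05, 3 of them (Mrpl33, Mrpl53 and Mrps34) were higher (37.5%, against 8.97% of all genes and 15.4% of the 78). The part of the overlapping genes in these values was not tested. By promoter motif, the median was 0.07 with an NRF1 match, 0.08 with an ETS match and -0.02 with a YY1 match. It was 0.01 for the 28 genes with a window and no match.

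The rest of the mitochondrial translation machinery gave no called gene either. In the lists that follow, 0 genes passed an adjusted p of 0.05 by edgeR. The 5 mitochondrial ribosome proteins with other symbols had a median log2 fold change of 0.05, with Chchd1 at 0.16 (adjusted p 0.451) and Dap3 at -0.10 (adjusted p 0.518). Translation factors (12) had a median log2 fold change of -0.08, with 4 above 0 and 8 below, led by Mrrf, the ribosome recycling factor (-0.18, adjusted p 0.358), and Mtif2, an initiation factor (-0.25, adjusted p 0.384). Genes for charging of mitochondrial tRNA (20) had a median of -0.10, with 5 above 0 and 15 below, led by Gatc (-0.38, adjusted p 0.202), a subunit of the amidotransferase that makes glutaminyl-tRNA, and Vars2, a valyl-tRNA synthetase (-0.23, adjusted p 0.30). Assembly and rRNA modification genes (28) had a median of 0.00, with 14 on each side of 0. Among them Rpusd4, a pseudouridine synthase, had 8.95, 10.9, 8.03 and 9.94 CPM in S727A hearts, against 12.4, 12.5, 12.3 and 12.5 CPM in WT hearts. Its groups did not overlap, and its log2 fold change was -0.39 with an adjusted p of 0.161 by edgeR. Mpv17l2, whose product takes part in ribosome assembly, averaged 21.3 ± 1.63 CPM in S727A hearts and 17.5 ± 2.72 CPM in WT hearts (SD, n = 4 each). It stood higher in S727A with overlapping groups, at a log2 fold change of 0.28 and an adjusted p of 0.263 by edgeR.

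Genes for mitochondrial transcription and RNA handling (21) had a median of -0.06, with 6 above 0 and 15 below. This list also held genes of mitochondrial DNA replication (Polg, Polg2, Twnk and Ssbp1). Polg, the catalytic subunit of the mitochondrial DNA polymerase, had 64.6, 75.7, 67.5 and 72.2 CPM in S727A hearts, against 83.6, 81.9, 83.4 and 90.7 CPM in WT hearts, with no overlap. Its log2 fold change was -0.28 with an adjusted p of 0.138 by edgeR, and that of Twnk, the helicase of mitochondrial DNA, was -0.32 with an adjusted p of 0.162. Among 12 regulators of mitochondrial gene expression (median -0.05), Ppargc1b, a coactivator of respiratory genes, had 64.5, 49.5, 56.5 and 66.4 CPM in S727A hearts, against 103, 90.2, 70.5 and 86.3 CPM in WT hearts. Again every S727A library was below every WT library. Its log2 fold change was -0.56 ± 0.13 with an adjusted p of 0.0992 by edgeR. Myc, a transcription factor that drives ribosome production, had 11.8, 9.37, 11.7 and 5.05 CPM in S727A hearts, against 4.31, 3.65, 8.34 and 5.76 CPM in WT hearts. S727A 4 lay within the WT range, and the log2 fold change was 0.76 ± 0.31 with an adjusted p of 0.241 by edgeR.

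Nuclear respiratory chain subunits and cytosolic ribosomal proteins lay further above 0 than the mitochondrial ribosomal proteins, again with 0 genes called. The median log2 fold change was 0.09 for 77 respiratory chain genes, with 59 above 0 and 18 below, and 0.16 for 78 cytosolic ribosomal protein genes, with 75 above 0 and 3 below. The genes of smallest p were Uqcr10 (0.31, adjusted p 0.14) and Ndufa11 (0.31, adjusted p 0.175) of the respiratory chain, and Rps27l (0.51, adjusted p 0.0863) and Rpl3 (0.53, adjusted p 0.119) of the cytosolic ribosome, all by edgeR. Their transcripts summed to 46973 ± 2080 CPM in S727A hearts and 44549 ± 2110 CPM in WT hearts for the respiratory chain, and to 19621 ± 1310 CPM in S727A hearts and 17584 ± 584 CPM in WT hearts for cytosolic ribosomal proteins. With the offsets for length and GC content these medians were 0.01 and 0.07, against the -0.01 of the mitochondrial ribosomal proteins. The differences between the lists were not tested. The 16 genes taken as a measure of mitochondrial content had a median of 0.06, with Tomm20, an import receptor of the outer membrane, at 0.32 (adjusted p 0.13) and Tomm40, the import channel, at 0.16 (adjusted p 0.346) by edgeR.

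**Figure D5:**
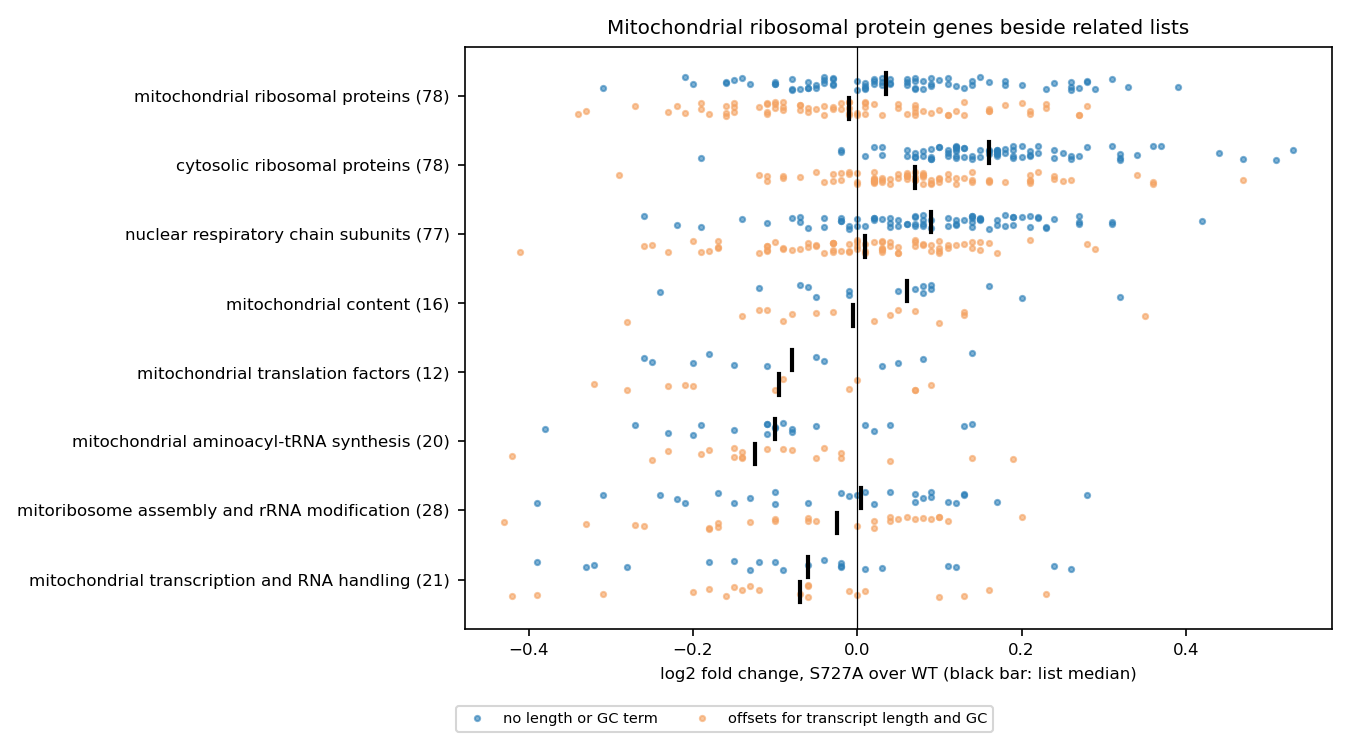
Log2 fold changes of S727A over WT (x axis) by gene list, 1 point a gene and a black bar at the list median, without (blue) and with (orange) offsets for length and GC content. The medians of mitochondrial ribosomal proteins (0.03 and -0.01), respiratory chain subunits (0.09 and 0.01) and cytosolic ribosomal proteins (0.16 and 0.07) are lower with the offsets.

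Some marker lists differed in level between the groups while others, such as endothelial markers, hardly did, again with 0 genes called. Cell cycle genes differed most, with 16 of 16 above 0, a median log2 fold change of 1.33 and 14 higher at an unadjusted p under 0.05. They summed to 208, 148, 164 and 110 CPM in the S727A libraries, against 74.8, 69.8, 111 and 76.6 CPM in the WT libraries. S727A 1 was the highest, and S727A 4 lay just under WT 3. Summed macrophage markers stood at 355 to 481 CPM in S727A hearts, against 477 to 879 CPM in WT hearts, with 0 of 9 markers above 0 in log2 fold change and the ranges just meeting. Smooth muscle and pericyte markers stood at 1108 to 1377 CPM in S727A hearts, against 1432 to 2085 CPM in WT hearts, without overlap and with 0 of 8 markers above 0. Fibroblast markers stood at 2549 to 3281 CPM in S727A hearts, against 1641 to 2947 CPM in WT hearts, with 8 of 8 above 0, and endothelial markers at 1051 to 1227 CPM in S727A hearts, against 1024 to 1218 CPM in WT hearts, with 5 of 8 above 0. Atrial myocyte markers stood at 2208 to 3964 CPM in S727A hearts, against 675 to 2579 CPM in WT hearts, while 5 of the 7 tested were below 0 and their median was -0.67, so that the sum and the median differ in sign. Their part in the values of the mitochondrial ribosomal protein genes was not tested.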

How the data were processed

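RNA of whole hearts was extracted with Trizol and made into 8 stranded mRNA libraries for DNBSEQ, per the labels' protocols. FastQC, HISAT2, Bowtie2 and the build GRCm38.p6 are named in the submitters' processing notes, without roles. The deposited table holds estimated counts per gene and library, of which 6.06% to 7.62% were not whole, and FPKM values, which per the file headers the authors computed. It also holds the authors' log2 ratio, p-value and q-value per gene. The counting tool, its use of strand and the division of shared reads are not given in the sources used here. Sample titles gave the groups and replicate numbers.

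The estimated counts were rounded first. Genes passing filterByExpr in edgeR 4.0.16 (R 4.3.3; minimum count 10, minimum total 15) numbered 12998. S727A was compared with WT by the two-sided quasi-likelihood F test with TMM normalization, robust dispersions in legacy mode and genotype as the only term. P-values were adjusted by Benjamini-Hochberg over all of them, with a threshold of 0.05. Library sizes for CPM were scaled by TMM, and a prior count of 2 was added for log2 CPM. The labels name no animal, so p-values reflect only how these libraries vary. Total counts of 10577619 to 13305124 per library set the counting precision.

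Positions came from GENCODE M21 on GRCm38, and promoter windows from RefSeq. Transcript length and GC content were those of the gene's longest coding transcript in GENCODE M21, or its longest transcript if none codes. The fits were tested on simulated data. Alternatives were RLE normalization, no filter, a filter at a CPM of 1 in 4 libraries, DESeq2 1.42.0, limma 3.58.1 voom, edgeR outside legacy mode, the replicate number as a block, leaving out each library or the pairs that stood apart, limma on log2(FPKM + 1), and offsets per library fitted by splines to the length and GC content of transcripts. The genes, lists and tests were chosen with earlier results of these data known. Genes were named if past the threshold, among the 10 of smallest unadjusted p, among the 3 highest or 3 lowest by mean FPKM, or for 13 known roles, and from each other list up to 2 of smallest unadjusted p; partners at shared starts, Mrpl39, Mrpl57 and genes near Stat3 were named after their values were seen.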

Additional observations from a re-analysis of the deposited data

Results flagged for a closer look

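In 60 groups of 4 libraries, the gap of the highest or lowest library to its nearest neighbour was compared with the range of the group, and 2 exceeded Dixon's 95% critical value. Chance alone passes it in about 1 in 20 groups. Mrps25, for a small subunit protein, stood at 25.0 CPM in S727A 2, against 20.4 to 21.0 CPM in the other 3 S727A libraries, a ratio of gap to range of 0.873. The summed level of small subunit genes was 1168 CPM in WT 1, against 1079 to 1090 CPM in the other 3 WT libraries, a ratio of 0.874.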

How the results depend on the processing

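Of 513 values of the 27 named genes under 19 alternatives, 490 kept their direction and side of the threshold, 4 passed it only in the alternative (Mrpl20 and Mrps34 by DESeq2, Mrpl20 and Mrps27 without S727A 4) and 19 changed sign. The changes of sign were in genes close to 0. With offsets for length and GC content, Mrpl10 stood at -0.01, Mrps12 at -0.01 and Mrps18c at -0.03. Mrpl58 stood at -0.02 without S727A 4 and WT 4, and at -0.02 without WT 1 and WT 4. Leaving out single libraries gave -0.03 to 0.09 for Mrpl19, -0.01 to 0.12 for Mrpl30, 0.00 to 0.09 for Mrpl3, -0.03 to 0.10 for Mrpl10, -0.06 to 0.09 for Mrpl58, -0.12 to 0.24 for Mrps12, 0.00 to 0.13 for Mrps18b and -0.04 to 0.19 for Mrps18c. The number of mitochondrial ribosomal protein genes called was 0, 2 by DESeq2, and 0 to 2 on leaving out single libraries. The 13 at an unadjusted p under 0.05 were 6 without WT 1 and WT 4, and 6 to 15 on leaving out single libraries. Over all genes, the 19 called became 534 by DESeq2, 6 by limma voom, 6 by limma on FPKM, 242 without S727A 4 and WT 4, 0 without WT 1 and WT 4, and 0 to 617 on leaving out single libraries. They were 617 without S727A 4, 275 without WT 3, 8 without S727A 2, 2 without WT 4 and 0 without S727A 1, S727A 3 or WT 1. The cause was not tested. With the replicate number as a block, 2 genes of all and 0 mitochondrial ribosomal protein genes were called. Libraries of the same number had correlations of -0.102 to 0.071 in their deviations from the group means, so the numbers were not read as pairs. The libraries almost without Y-linked counts, S727A 4 and WT 4, do share a number. Whether the numbers mark matched animals is not given in the labels.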
